A study of Sparus aurata with 30 samples.

Results

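Genes for ion transporters, pumps, channels and aquaporins were followed across 3 tissues of Sparus aurata, the gilthead sea bream, which is reared in sea cages: intestine, head kidney and liver. A gene was taken when its symbol belonged to the solute carrier families slc4, slc5, slc8, slc9, slc12, slc20, slc24, slc26 or slc34, to the Na+/K+-ATPase subunits, the clcn, cftr, bestrophin or kcnj channels, or the aquaporins. The genes slc12a1, slc12a3 and slc4a4 were set aside. This gave 45 of the 25722 genes in the count tables. The rule found no slc34 gene and no alpha subunit of the Na+/K+-ATPase. Of the identifiers 15526 are LOC numbers without a name, and paralogs under such numbers are not among the 45. The fish ate an SDY diet, with spent dry yeast from breweries at an inclusion of 30%, or the Control diet. The yeast took the place of fish meal (10%) and of protein from plants (31.4%). The RNA came from 5 randomly picked specimens per tissue and diet, and the labels give no age, strain, tank or weight. The groups were Intestine SDY and Control, with 5 libraries each, Head_Kidney SDY with 5 and Control with 3, and Liver SDY and Control, with 5 each. Head_Kidney Control replicates 1 and 3 were left out, as a library of 926 counts and a library with 18752 CPM (counts scaled to a common library size) of hepatocyte marker transcripts. The p-values measure the spread between specimens, since the labels do not say how the fish were spread over tanks.

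A marine teleost loses water to the sea and drinks to replace it. The intestine takes up salt and water through apical cotransporters driven by the Na+ gradient that the basolateral Na+/K+-ATPase maintains, and secretes bicarbonate that precipitates calcium and magnesium. Head kidney is mainly a blood-forming, immune and hormone-producing tissue in adult teleosts. The liver moves sugars, phosphate, bile and water across hepatocytes and ducts, and many members of these families work inside cells, on endosomes, lysosomes and the Golgi.

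The 28 libraries held 9276705 to 20580440 counts, with a median of 17301416. The tissue labels fitted their markers. A list of 4 enterocyte transcripts summed to 3099 to 13772 CPM in intestine, 0.126 to 3.88 CPM in head kidney and 7.16 to 96.2 CPM in liver. The 8 leukocyte transcripts summed to 396 to 1060 CPM in intestine, 1385 to 2024 CPM in head kidney and 23.1 to 74.0 CPM in liver. The 7 hepatocyte transcripts summed to 588 to 1155 CPM in intestine, nearly all of it a1cf, 22.7 to 50.8 CPM in head kidney and 23289 to 41720 CPM in liver. The 6 renal tubule transcripts summed to only 3.38 to 6.72 CPM in head kidney, with pax8 and cdh16 at or near 0. The carboxypeptidase transcript cpb1, made by exocrine pancreas, reached 3629 to 18738 CPM in liver, against at most 1100.3 CPM in intestine and 13.3 CPM in head kidney.

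Levels of single genes are CPM on library sizes scaled by the trimmed mean of M-values (TMM) over the 28 libraries. Whether the libraries of 2 tissues overlap was judged on these levels. Some tissues that do not overlap here do so under library totals, such as intestine and liver for slc20a2, and head kidney and liver for clcn3. Tissue differences are log2 fold changes, averaged over the diets, with standard errors (SE) from edgeR's quasi-likelihood fit of all libraries. Adjusted p-values are Benjamini-Hochberg values over all 20296 genes tested, and a gene past 0.05 is called higher or lower. Scaling by library totals in place of TMM moved the median of all genes by 1.20 for intestine minus liver, by -0.28 for intestine minus head kidney and by 1.47 for head kidney minus liver on the log2 scale. Directions are therefore relative to the bulk of genes, and called directions that turn round under library totals are named. Counts were made over gene spans with introns, so the text compares levels between samples for 1 gene and draws no difference between genes. In bulk tissue, fewer cells of a type and less RNA per cell cannot be told apart.

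**Figure D1:**
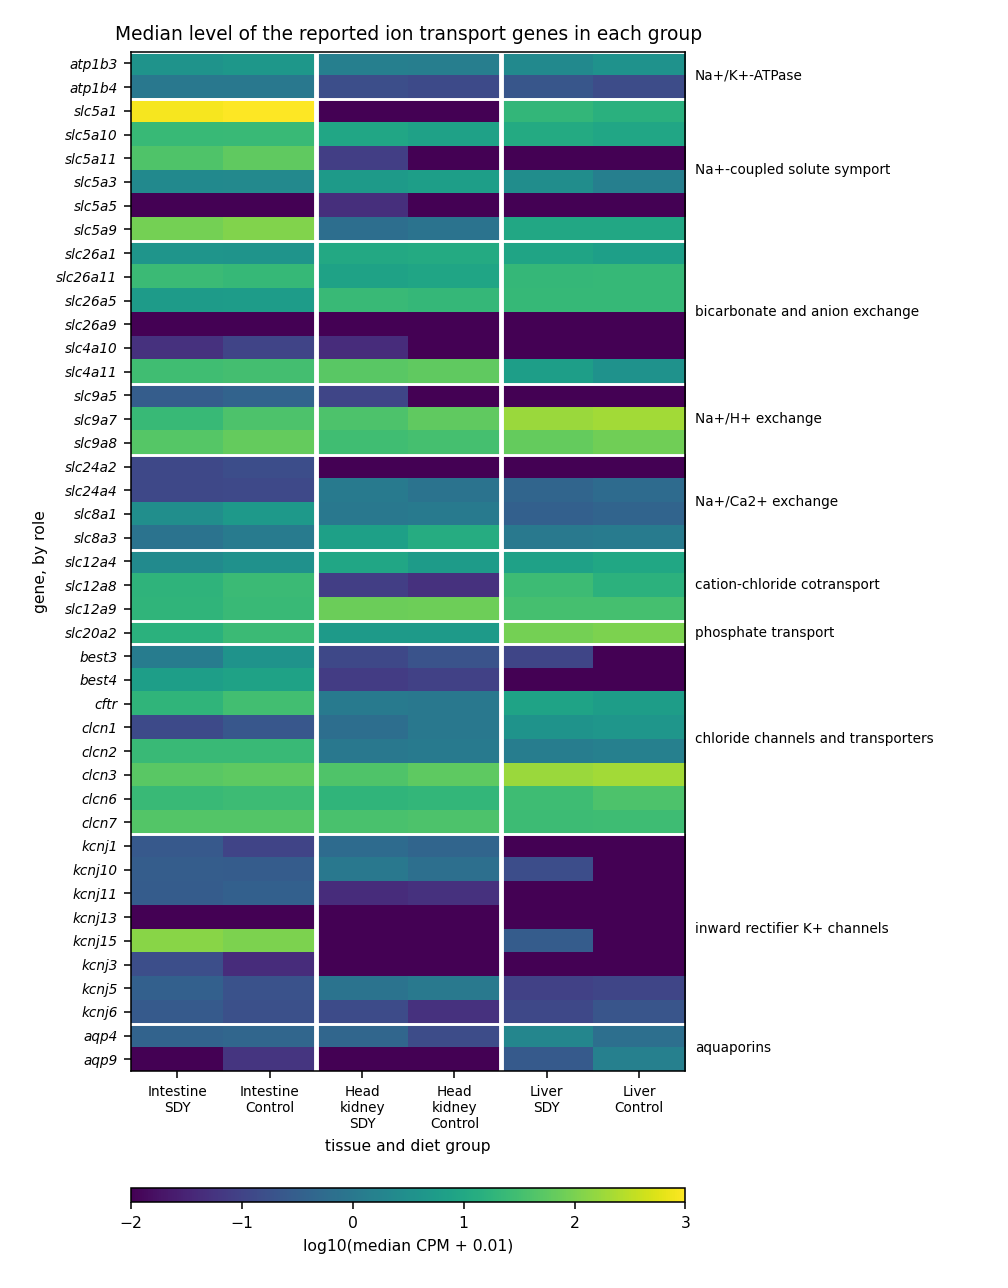
Median level of the reported genes in the 6 tissue and diet groups, as log10(CPM + 0.01), with genes grouped by role. Colours are to be read along a row. The 2 diet columns of a tissue lie side by side, and slc5a1, kcnj15, slc5a11 and best4 are bright in intestine against dark head kidney columns.

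Across tissues, 35 of the 45 genes had enough counts to be tested. The other 10, with slc4a10, slc26a9, slc5a5, slc24a2, slc9a5, kcnj3, kcnj6, kcnj11 and kcnj13 among them, had medians of at most 0.317 CPM in any tissue. Of the 35, 29 differed between intestine and liver, 17 higher and 12 lower, where 78.8% of all genes did (43.4% higher and 35.4% lower). Between intestine and head kidney 31 differed, 18 higher and 13 lower, against 73.5% of all genes (38.5% and 35%). Between head kidney and liver 28 differed, 12 higher and 16 lower, against 74.9% of all genes (37.5% in each direction). Most genes of any kind differed between these tissues, so the counts alone do not set the members apart. Under library totals the splits were 25 higher and 6 lower for intestine minus liver, 16 and 13 for intestine minus head kidney, and 22 and 9 for head kidney minus liver.

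A difference of at least 2-fold was called for 24 genes between intestine and liver, 15 higher and 9 lower, where 52.7% of all genes passed (31.9% and 20.9%). It was called for 26 between intestine and head kidney, 15 higher and 11 lower, where 46.8% passed (29% and 17.8%). Between head kidney and liver it was called for 22, 9 higher and 13 lower, where 52.6% passed (26.3% and 26.2%). The libraries of intestine and liver did not overlap for 17 members, 13 higher and 4 lower, against 39.1% of all genes (21.6% and 17.4%). Those of intestine and head kidney did not for 21, 16 higher and 5 lower, against 41.1% (22.5% and 18.6%). Those of head kidney and liver did not for 17, 6 higher and 11 lower, against 46.3% (22.3% and 24%). The median absolute difference of the tested members was 1.74, 1.72 and 1.55 on the log2 scale for these 3 pairs in the same order, beside 1.14, 0.95 and 1.21 for all genes. Above both other tissues stood 12 members in intestine (23.4% of all genes), 8 in head kidney (22.3%) and 6 in liver (25%). Below both others stood 7 in intestine (15.5% of all genes), 12 in head kidney (21.4%) and 8 in liver (25.4%). Under library totals, 15 members stood above both others in intestine, 11 in head kidney and 4 in liver, and 3 stood below both in intestine, 6 in head kidney and 18 in liver.

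The Na+-coupled symporters of the slc5 family draw sugars, inositol or iodide into cells along with Na+. Of the 6 members, 4 were called higher in intestine than in both other tissues, 1 (slc5a3) was called higher in head kidney than in both others, and 1 (slc5a5) was not tested. The Na+/glucose symporter slc5a1, the brush border route for glucose in mammals, lies on chromosome 12 from 14626583 to 14635679 (minus strand, assembly fSpaAur1.1). Its lowest, median and highest levels were 479, 972 and 1250.3 CPM in intestine, 0, 0 and 0.0465 CPM in head kidney, and 8.47, 15.6 and 33.1 CPM in liver. Every intestine library stood above every liver library, and every liver library above every head kidney library. The difference of intestine minus liver was 5.87 (SE 0.27, edgeR adjusted p = 4.64e-16). In head kidney the gene had 2 counts over 8 libraries, so the ratio of intestine over head kidney was 96703 with a 95% counting interval of 26769.8 to 798511. Such exact intervals cover counting error only.

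The symporter slc5a9, a mannose and fructose carrier in mammals, gave 45.5, 103 and 249 CPM in intestine, 0.403, 0.696 and 1.07 CPM in head kidney and 5.95, 9.90 and 13.6 CPM in liver as lowest, median and highest. No tissue overlapped another. Its differences were 3.73 (SE 0.27) for intestine minus liver and 7.48 (SE 0.40) for intestine minus head kidney. The inositol carrier slc5a11 had 24.3 to 94.4 CPM in intestine, up to 0.333 CPM in head kidney and up to 0.331 CPM in liver, where it had 4 counts in all. The ratio of intestine over liver was 1239.9 with a counting interval of 484 to 4551. The liver counts came from 2 libraries. The fitted difference of intestine minus liver was 10.29, or 12.08 without Liver SDY replicate 2 and 11.36 without Liver Control replicate 3. Head_Kidney Control replicate 4 carried 8 of the 17 head kidney counts, and without it the fitted difference of intestine minus head kidney was 11.4 rather than 9.29.

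The sugar carrier slc5a10 had medians of 23.8 CPM in intestine, 8.19 CPM in head kidney and 10.6 CPM in liver, and was called higher in intestine than in either other tissue without overlap. Head kidney was called lower than liver for it (-0.36, SE 0.11), a difference that is 1.13 under library totals. The inositol carrier slc5a3, which loads cells with inositol as an osmolyte, ran from 0.993 to 4.51 CPM in intestine, 4.98 to 7.33 CPM in head kidney and 0.590 to 3.31 CPM in liver. Head kidney stood above both without overlap, with -1.37 (SE 0.29) for intestine minus head kidney and 1.70 (SE 0.30) for head kidney minus liver. The span of slc5a3 overlaps kcne1 on the same strand, and slc5a9 and slc5a10 each overlap an unnamed gene on the other strand, so part of their reads may belong to those genes. The iodide symporter slc5a5 of thyroid had 12 counts in intestine, 5 in head kidney and 0 in liver.

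The Na+/K+-ATPase was represented by beta subunits only, the glycoproteins that bring the catalytic alpha subunit to the cell surface. For atp1b3 the lowest, median and highest levels were 2.78, 4.35 and 7.77 CPM in intestine, 0.887, 1.40 and 1.89 CPM in head kidney and 1.11, 2.86 and 5.98 CPM in liver. Intestine exceeded head kidney in every library (1.75, SE 0.28), while intestine and liver overlapped and did not pass the threshold (0.54, SE 0.25, adjusted p = 0.0515). Under library totals, and under another set of size factors (RLE), the difference of intestine minus liver did pass, with intestine higher. Head kidney was called lower than liver (-1.21, SE 0.28), but the value is 0.29 under library totals. The paralog atp1b4 had 0.478 to 1.77 CPM in intestine, above all head kidney libraries (0.0682 to 0.426 CPM) and all liver libraries (0 to 0.337 CPM).

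The chloride channels and transporters act at the plasma membrane or on organelles. Of the plasma membrane channels, cftr, clcn2, best3 and best4 were called higher in intestine than in both other tissues, each without overlap. The channel clcn1 went the other way, called higher in liver than in both others and lower in intestine than in both others. The organelle exchanger clcn7 was also called higher in intestine than in both others, so the calls do not follow the split by site. The cystic fibrosis channel cftr, the cyclic AMP-regulated exit for Cl- and bicarbonate in epithelia, lies on chromosome 8 from 23131208 to 23169733 (plus strand). It gave 11.2, 20.1 and 38.3 CPM in intestine, 0.726, 1.01 and 2.32 CPM in head kidney and 3.46, 6.10 and 10.9 CPM in liver. The 3 tissues did not overlap, with 1.74 (SE 0.26, adjusted p = 9.88e-07) for intestine minus liver, 4.27 (SE 0.33, adjusted p = 1.71e-11) for intestine minus head kidney and -2.53 (SE 0.31) for head kidney minus liver. On library totals the highest head kidney library had 3.88 CPM, above the liver median of 3.57 CPM, so head kidney and liver overlap on that scale. The liver libraries that held cftr also held the pancreatic cpb1 at the levels above, whose part in this was not tested.

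The voltage-gated channel clcn2, which opens on hyperpolarisation, had 14.8, 24.2 and 42.2 CPM in intestine, 0.682, 1.04 and 1.21 CPM in head kidney and 0.833, 1.38 and 2.99 CPM in liver. Its differences were 4.07 (SE 0.23) for intestine minus liver and 4.70 (SE 0.27) for intestine minus head kidney. Head kidney minus liver was -0.63 (SE 0.25, adjusted p = 0.0285) and is 0.85 under library totals. It missed the threshold without Head_Kidney Control replicate 2 (-0.57), Liver SDY replicate 2 (-0.55) or Liver Control replicate 3 (-0.49).

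The bestrophins are Ca2+-activated anion channels. For best4 the levels ran from 1.76 to 15.0 CPM in intestine, 0 to 0.148 CPM in head kidney and 0 to 0.205 CPM in liver, where 4 counts gave a ratio of intestine over liver of 159 (counting interval 62.1 to 585). For best3 intestine had 1.07 to 3.97 CPM, head kidney 0.0726 to 0.279 CPM and liver 5 counts in all, with an unnamed antisense gene over its span.

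**Figure D2:**
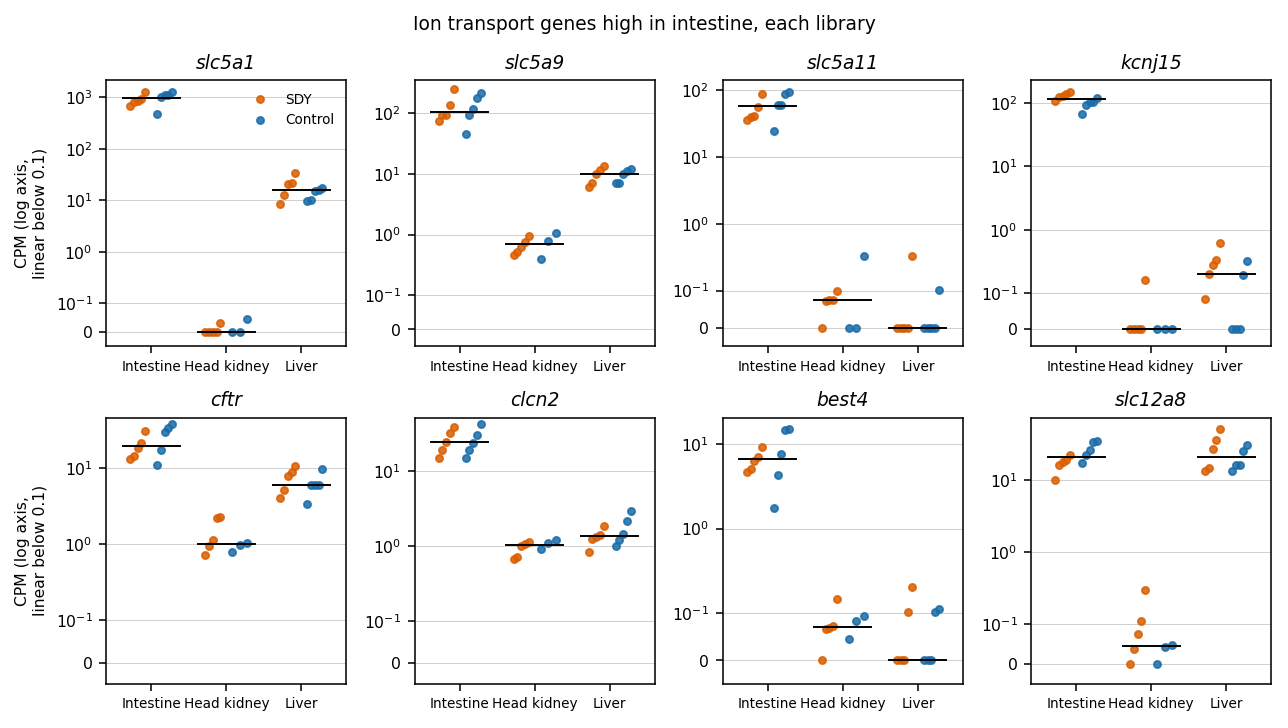
Level of 8 genes in each library, in CPM on a log axis that is linear below 0.1, with intestine, head kidney and liver from left to right and SDY left of Control. Points are libraries and lines are tissue medians over both diets. All 8 stand higher in intestine than in head kidney in every library, and slc12a8 overlaps between intestine and liver.

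The intracellular exchangers clcn3, clcn6 and clcn7 swap Cl- for protons on endosomes and lysosomes, and were read in every library of every tissue. For clcn3 the lowest, median and highest levels were 46.4, 55.2 and 78.7 CPM in intestine, 36.2, 43.01 and 67.8 CPM in head kidney and 146, 193 and 243 CPM in liver. Liver stood above both without overlap, with -1.72 (SE 0.12) for intestine minus liver and -1.99 (SE 0.13) for head kidney minus liver, which are -0.51 and -0.48 under library totals. The medians of clcn6 were 26.8, 19.2 and 30.6 CPM in intestine, head kidney and liver, and those of clcn7 were 45.9, 37.5 and 27.3 CPM. For clcn6, head kidney was called lower than liver (-0.80, SE 0.15), which is 0.71 under library totals. For clcn7, intestine was called higher than head kidney by 0.25 (SE 0.11, adjusted p = 0.0376), which is -0.05 under library totals. This call was lost, with values of 0.21 to 0.24, when any of 8 libraries was left out: Intestine SDY replicate 3, Intestine Control replicates 1, 3 and 5, Head_Kidney SDY replicates 2 and 4, and Head_Kidney Control replicates 4 and 5. It was also lost in Control libraries alone (0.074, adjusted p = 0.710). The channel clcn1, which stabilises the resting potential of skeletal muscle, had 0.0731 to 0.335 CPM in intestine, 0.297 to 1.25 CPM in head kidney and 1.85 to 8.002 CPM in liver. Its difference of intestine minus liver was -4.40 (SE 0.34), without overlap.

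Among inward rectifier K+ channels, which set the membrane potential and recycle K+ across epithelia, kcnj15 was higher in intestine than in both other tissues. It lies on chromosome 13 from 24752367 to 24756491 (plus strand), 73716 bases from kcnj6. Its lowest, median and highest levels were 66.4, 114 and 147 CPM in intestine, 0, 0 and 0.164 CPM in head kidney and 0, 0.200 and 0.616 CPM in liver. The difference of intestine minus liver was 9.31 (SE 0.35, adjusted p = 7.89e-17). All 5 head kidney counts came from SDY replicate 4, and the ratio of intestine over head kidney was 4685 (counting interval 2007 to 14429.9). Its neighbour kcnj6, a subunit of the G protein-gated channels, had 0.0812 to 1.24 CPM in intestine, up to 0.148 CPM in head kidney and up to 0.417 CPM in liver, and was not tested.

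The other tested kcnj genes, kcnj1, kcnj5 and kcnj10, were called higher in head kidney than in both other tissues at low levels. The secretory channel kcnj1 and the G protein-gated kcnj5 lie 13068 bases apart on chromosome 2. The levels of kcnj1 were 0 to 0.431 CPM in intestine and 0.250 to 0.884 CPM in head kidney, with 1 count in liver, so that the ratio of head kidney over liver was 48.5 (counting interval 8.53 to 1932). For kcnj5 they were 0.0478 to 1.05 CPM in intestine, 0.334 to 1.43 CPM in head kidney and 0 to 0.295 CPM in liver. Head kidney and liver did not overlap (3.24, SE 0.50), but intestine and head kidney did (-1.38, SE 0.39), with -0.34 in SDY libraries alone (adjusted p = 0.536). For kcnj10, a channel of glia and renal tubules, the medians were 0.283, 0.974 and 0.110 CPM in intestine, head kidney and liver. Its head kidney libraries (0.171 to 1.30 CPM) overlapped those of intestine (0.0548 to 0.615 CPM) and liver (0 to 0.441 CPM, 11 counts in all). The counts of kcnj11, the pore of the ATP-sensitive channel, were 70, 8 and 1 in those tissues, those of kcnj3 were 23, 5 and 0, and those of kcnj13 were 2, 1 and 1.

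Anion exchangers of the slc4 and slc26 families move bicarbonate, Cl-, sulfate or oxalate. The slc4 family member slc4a11, which carries proton equivalents in mammals, had 20.2, 30.7 and 39.7 CPM in intestine, 47.6, 53.8 and 64.3 CPM in head kidney and 2.93, 4.76 and 8.17 CPM in liver. The 3 tissues did not overlap, with head kidney highest (-0.87, SE 0.16, for intestine minus head kidney; 3.47, SE 0.18, for head kidney minus liver). The sulfate and oxalate exchanger slc26a1 had 2.30 to 6.40 CPM in intestine, 8.41 to 12.4 CPM in head kidney and 3.08 to 10.0 CPM in liver. Intestine was lower than head kidney without overlap (-1.40, SE 0.18). Its call against liver (-0.88, SE 0.17) is 0.35 under library totals.

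The sulfate carrier slc26a11 had medians of 22.6, 8.22 and 21.5 CPM in intestine, head kidney and liver. Head kidney lay below both without overlap, but its difference from liver (-1.33, SE 0.14) is 0.16 under library totals. For slc26a5, the gene of the hair cell motor protein prestin in mammals, the levels were 4.28, 5.63 and 30.3 CPM in intestine, 19.3, 23.4 and 29.6 CPM in head kidney and 19.9, 22.6 and 29.6 CPM in liver. The 30.3 CPM came from Intestine Control replicate 4, and the other 9 intestine libraries lay at 4.28 to 12.3 CPM, below all libraries of head kidney and liver. Without that library, intestine minus head kidney was -1.90 (SE 0.17), against -1.43 (SE 0.29) with it. In Control libraries alone it was -1.12 and missed the threshold (adjusted p = 0.0858), and the call against liver (-1.40, SE 0.28) is -0.10 under library totals. The spans of slc26a11 and slc26a5 overlap sgsh and psmc2 on the other strand. The neuronal slc4a10 had 30, 5 and 1 counts in intestine, head kidney and liver, and slc26a9 had 1, 1 and 0.

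Na+/H+ exchangers regulate the pH of the cytoplasm or, for slc9a7 and slc9a8, of the Golgi and endosomes. The levels of slc9a7 were 13.6, 24.4 and 51.2 CPM in intestine, 31.1, 42.9 and 76.4 CPM in head kidney and 93.7, 190 and 247 CPM in liver. Liver stood above both without overlap, with -2.70 (SE 0.24) for intestine minus liver and -1.88 (SE 0.26) for head kidney minus liver, the second of which is -0.38 and misses the threshold under library totals (adjusted p = 0.137). The levels of slc9a8 were 40.7, 57.8 and 76.2 CPM in intestine, 23.3, 31.2 and 34.3 CPM in head kidney and 52.2, 76.2 and 86.6 CPM in liver. Head kidney lay below intestine in every library (0.86, SE 0.12, for intestine minus head kidney). Its calls against liver, -0.36 (SE 0.11) for intestine and -1.22 (SE 0.12) for head kidney, are 0.82 and 0.28 under library totals. The plasma membrane exchanger slc9a5 had 92, 16 and 1 counts in intestine, head kidney and liver.

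Na+/Ca2+ exchangers push Ca2+ out of cells against Na+, and for slc24 genes also against K+. The exchanger slc8a1 ran from 2.63 to 5.78 CPM in intestine, above all head kidney libraries (0.325 to 2.096 CPM) and all liver libraries (0 to 0.761 CPM). Its paralog slc8a3 was highest in head kidney, with 0.447, 0.895 and 1.44 CPM in intestine, 6.72, 11.1 and 15.1 CPM in head kidney and 0.136, 1.06 and 1.64 CPM in liver. Head kidney stood above both other tissues without overlap, with -3.5 (SE 0.29) for intestine minus head kidney and 3.5 (SE 0.30) for head kidney minus liver. For slc24a4 the medians were 0.110, 0.959 and 0.487 CPM in intestine, head kidney and liver, with intestine called lower than both, and slc24a2 had 32, 4 and 0 counts.

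Cation-chloride cotransporters move Cl- with K+ or Na+ and set cell volume. The K+-Cl- cotransporter slc12a4 had medians of 2.80, 6.37 and 8.20 CPM in intestine, head kidney and liver. The transporter slc12a8 gave 9.95, 20.8 and 35.4 CPM in intestine, 0, 0.0440 and 0.295 CPM in head kidney and 13.2, 20.9 and 50.9 CPM in liver. It was nearly unread in head kidney, with 17 counts, and intestine minus head kidney was 8.40 (SE 0.49). Intestine and liver overlapped (-0.16, SE 0.25, adjusted p = 0.578), but under library totals this difference turned round and intestine was called higher. The family member slc12a9 gave 15.8, 20.9 and 27.9 CPM in intestine, 66.8, 76.5 and 84.6 CPM in head kidney and 23.8, 33.7 and 38.5 CPM in liver. Head kidney stood above both without overlap (-1.83, SE 0.11, for intestine minus head kidney; 1.24, SE 0.11, for head kidney minus liver). Intestine minus liver was -0.59 (SE 0.10), which is 0.60 under library totals. Both slc12a8 and slc12a9 overlap unnamed antisense genes.

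For the trio set aside, the levels in the same libraries were 1402 to 5258 CPM in intestine, 0.472 to 1.24 CPM in head kidney and 0 to 13.7 CPM in liver for slc12a1, the apical Na+-K+-2Cl- cotransporter. The Na+-bicarbonate cotransporter slc4a4 had 123 to 458 CPM in intestine, at most 0.167 CPM in head kidney and at most 1.99 CPM in liver, and slc12a3 had 2 counts in all.

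The phosphate carrier slc20a2, a Na+-coupled importer of the plasma membrane, lies on chromosome 5 from 24297349 to 24352515 (plus strand). It gave 13.1, 21.6 and 32.1 CPM in intestine, 4.41, 5.34 and 6.26 CPM in head kidney and 36.5, 95.9 and 204 CPM in liver. The tissues did not overlap, with -2.17 (SE 0.24) for intestine minus liver, 2.01 (SE 0.27) for intestine minus head kidney and -4.19 (SE 0.30, adjusted p = 3.01e-12) for head kidney minus liver.

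Only aqp4 and aqp9 of the aquaporins carry symbols that the rule takes. The aquaglyceroporin aqp9, which carries glycerol into hepatocytes in mammals, had 8 counts in intestine, 1 in head kidney and 77 in liver. In liver 9 of 10 libraries had a count and the highest level was 2.28 CPM. Scaled within liver, the SDY libraries had 0.0762, 0.240, 0, 0.134 and 0.385 CPM, against 1.24, 0.805, 0.856, 0.374 and 0.362 CPM in Control. The diets overlapped, with SDY replicate 5 above Control replicates 4 and 5, and aqp9 was not tested for diet in liver. Intestine minus liver was -4.43 (SE 0.52, adjusted p = 4.37e-08), or -5.03 without Intestine SDY replicate 5, and the ratio of head kidney over liver was 0.00548 (counting interval 0.000137 to 0.0314). The water channel aqp4 had medians of 0.410, 0.428 and 0.919 CPM in intestine, head kidney and liver, and the tissues overlapped. Intestine minus liver passed (-1.35, SE 0.48, adjusted p = 0.0134) but not under library totals (-0.13), and not in Control libraries alone (-0.48).

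**Figure D3:**
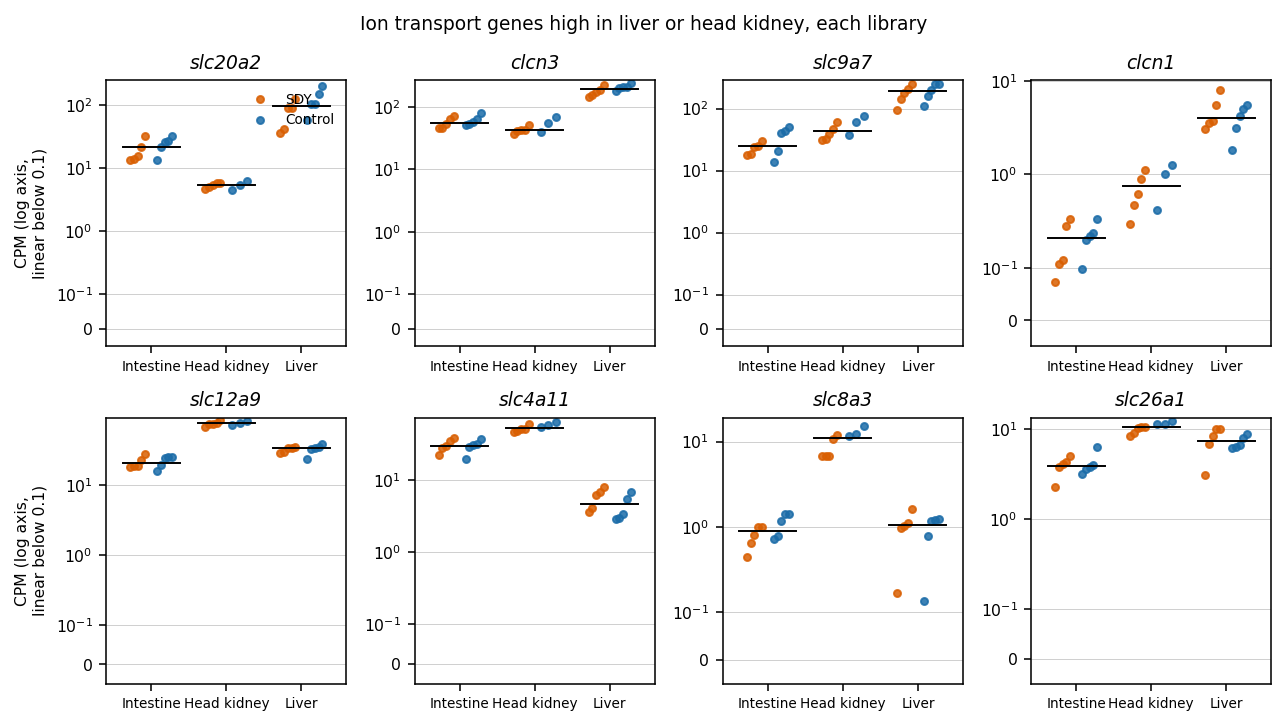
Level of 8 genes in each library, in CPM on a log axis that is linear below 0.1, with intestine, head kidney and liver from left to right and SDY left of Control. Points are libraries and lines are tissue medians over both diets. The genes slc20a2, clcn3, slc9a7 and clcn1 are highest in liver, and slc12a9, slc4a11, slc8a3 and slc26a1 have their highest median in head kidney.

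Partners and regulators of these proteins were taken from a list of 61 genes with carbonic anhydrases, V-ATPase subunits, Ca2+ pumps, scaffolds, kinases and hormones, of which 52 were tested. Between intestine and liver 40 differed (25 higher, 15 lower), between intestine and head kidney 36 (25 higher, 11 lower) and between head kidney and liver 42 (16 higher, 26 lower), against the shares of all genes given above. The scaffold pdzk1, which anchors transporters in the brush border, had 313 to 831 CPM in intestine, 1.19 to 1.87 CPM in head kidney and 1.03 to 6.18 CPM in liver. The carbonic anhydrase ca7, which makes bicarbonate from CO2, had 6.86 to 90.7 CPM in intestine, 3 counts in head kidney and 11 counts in liver. The Ca2+ pump atp2a3 had medians of 16.4 CPM in intestine, 68.1 CPM in head kidney and 1.65 CPM in liver. The growth factor igf1 had medians of 0.538 CPM in intestine, 0.271 CPM in head kidney and 564 CPM in liver. Its libraries ran from 0.358 to 2.39 CPM, 0.0465 to 18.5 CPM and 322 to 940 CPM in the same order.

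The diet comparison asks whether SDY feeding changed these transcripts within a tissue. No member passed the threshold in any tissue with edgeR's quasi-likelihood test: 0 of 29 tested in intestine (0% of all genes), 0 of 27 in head kidney (0.00583%) and 0 of 23 in liver (0%). At an unadjusted p under 0.05 there were 4 members in intestine, 5 in head kidney and 3 in liver, against 6.45%, 11.7% and 10.6% of all genes. DESeq2 also called 0 members in each tissue. The median SE of the members was 0.26 in intestine, 0.21 in head kidney and 0.28 in liver on the log2 scale, so small differences were not detectable with this number of libraries. The partner list likewise had 0 genes past the threshold in each tissue.

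**Figure D4:**
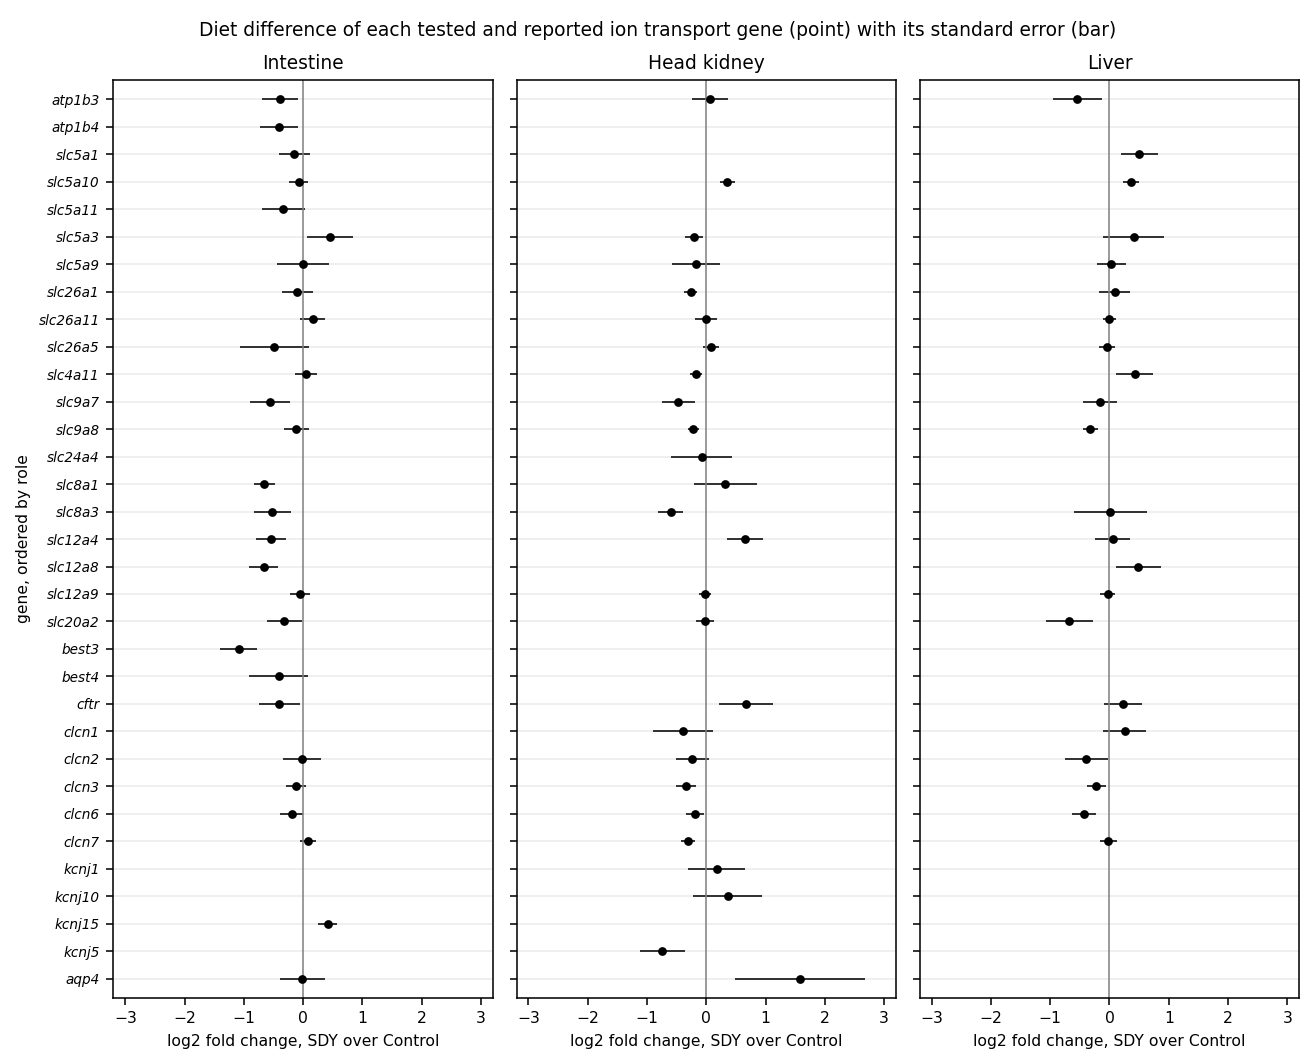
Diet difference of each tested gene, as the log2 fold change of SDY over Control (point) with its standard error (bar), in intestine, head kidney and liver. Genes are ordered by role, and a gene without a point was not tested in that tissue. Genes that are not reported are not drawn. No gene passed the adjusted threshold, and the values run from -1.09 to 0.45 in intestine, -0.74 to 1.58 in head kidney and -0.68 to 0.51 in liver.

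Most point estimates in intestine lay below 0. They were above 0 for 6 and below 0 for 23 of the 29 genes, with a median of -0.15, where 48.1% of all genes lay above 0. In head kidney 9 lay above 0 and 18 below, with 53.7% of all genes above, and the split became 14 and 13 under library totals, which moved the median of all genes there by 0.12. In liver 12 lay above and 11 below, with 49.5% of all genes above. Of the 20 members tested in all 3 tissues, 0 lay above 0 in each and 7 (35%) below 0 in each, namely clcn2, clcn3, clcn6, slc12a9, slc20a2, slc9a7 and slc9a8. Of all genes 21.4% lay above 0 in each tissue and 19.3% below. Under library totals 6 lay below 0 in each, with slc8a3 in and slc12a9 and slc20a2 out.

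The members with the smallest p in intestine are given with CPM scaled within that tissue. For slc8a1 the SDY libraries had 3.93, 3.55, 3.31, 4.15 and 3.73 CPM, against 6.40, 7.38, 4.69, 4.39 and 6.55 CPM in Control. The groups did not overlap, as for 0.834% of all genes in intestine (0.198% higher and 0.637% lower in SDY), but the difference of -0.65 (SE 0.18) had an adjusted p of 0.739. For best3 the SDY libraries had 1.57, 2.99, 1.56, 1.79 and 1.35 CPM, against 4.71, 4.88, 3.08, 1.98 and 5.05 CPM in Control (-1.09, SE 0.32, adjusted p = 0.739). SDY replicate 2 and Control replicate 4 crossed over.

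For slc12a8 they had 22.5, 28.4, 24.2, 12.9 and 20.3 CPM with SDY, against 32.7, 43.7, 28.3, 22.4 and 45.04 CPM in Control (-0.67, SE 0.25, adjusted p = 0.740). The diets overlapped, with SDY replicates 1, 2 and 3 above Control replicate 4, and SDY replicate 2 also just above Control replicate 3. For kcnj15 they had 177, 136, 185, 161 and 162 CPM with SDY, against 128, 154, 119, 85.8 and 131 CPM in Control (0.41, SE 0.16, adjusted p = 0.756). This was the only gene of the 4 with a higher mean in SDY, and Control replicate 2 stood above SDY replicate 2. The glucose symporter slc5a1 had 1016, 1585, 1151, 1102 and 873 CPM with SDY, against 1417, 1314, 1425, 619 and 1591 CPM in Control (-0.15, SE 0.26). The channel cftr had 27.6, 40.05, 23.1, 18.8 and 17.0 CPM with SDY, against 37.8, 48.9, 22.2, 14.5 and 43.5 CPM in Control (-0.40, SE 0.35). In both, the 2 diets overlapped and Control replicate 4 held the lowest value.

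Among the members tested in head kidney, 1 was higher and 4 were lower in SDY without overlap of the libraries, beside 7.26% of all genes (3.81% higher and 3.45% lower). For slc5a10 the SDY libraries had 12.3, 14.7, 16.2, 15.5 and 12.8 CPM, against 12.01, 11.5 and 10.1 CPM in Control (0.35, SE 0.13, adjusted p = 0.407). Its value was -0.15 when the 2 left-out Control libraries were put back. For clcn7 they had 57.9, 46.4, 57.7, 48.1 and 57.3 CPM with SDY, against 77.1, 60.3 and 61.9 CPM in Control (-0.31, SE 0.12, adjusted p = 0.407). For slc26a1 they had 13.03, 17.1, 16.6, 14.5 and 16.2 CPM with SDY, against 18.0, 18.1 and 19.5 CPM in Control (-0.26, SE 0.11, adjusted p = 0.418). The other tested pair without overlap was slc9a8 and kcnj5, at -0.22 (SE 0.09) and -0.74 (SE 0.38). The untested slc9a5 did not overlap either, with 0.111 to 0.288 CPM with SDY and 0 in every Control library, on 16 counts in all.

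The exchanger slc8a3 overlapped: it had 18.6, 10.8, 10.97, 10.8 and 16.2 CPM with SDY, against 19.6, 23.5 and 18.2 CPM in Control (-0.60, SE 0.21, adjusted p = 0.407). Marker transcripts of other cell types differed among these head kidney libraries. The 6 erythroid transcripts summed to 846 to 2291 CPM with SDY, against 1736 to 2565 CPM in Control, and the 6 interrenal and chromaffin transcripts to 16.5 to 2241 CPM with SDY, against 3.74 to 9.14 CPM in Control. The erythroid ranges overlapped and the interrenal ranges did not. Their part in the head kidney values was not tested.

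In liver slc9a8 had 28.7, 35.97, 42.4, 39.1 and 32.3 CPM with SDY, against 47.2, 43.97, 45.6, 44.2 and 42.6 CPM in Control. The groups did not overlap, as for 1.39% of all genes in liver (0.533% higher and 0.859% lower in SDY), and the difference was -0.33 (SE 0.13, adjusted p = 0.406). In intestine the same gene overlapped, at -0.12 (SE 0.21). For slc5a10 the livers had 7.32, 6.79, 6.04, 6.12 and 5.77 CPM with SDY, against 4.86, 5.91, 4.51, 4.04 and 5.50 CPM in Control (0.37, SE 0.14, adjusted p = 0.406), with 1 crossing. The difference of clcn6 was -0.43 (SE 0.20, adjusted p = 0.479) and that of slc20a2 was -0.68 (SE 0.40, adjusted p = 0.555), both with overlapping libraries.

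**Figure D5:**
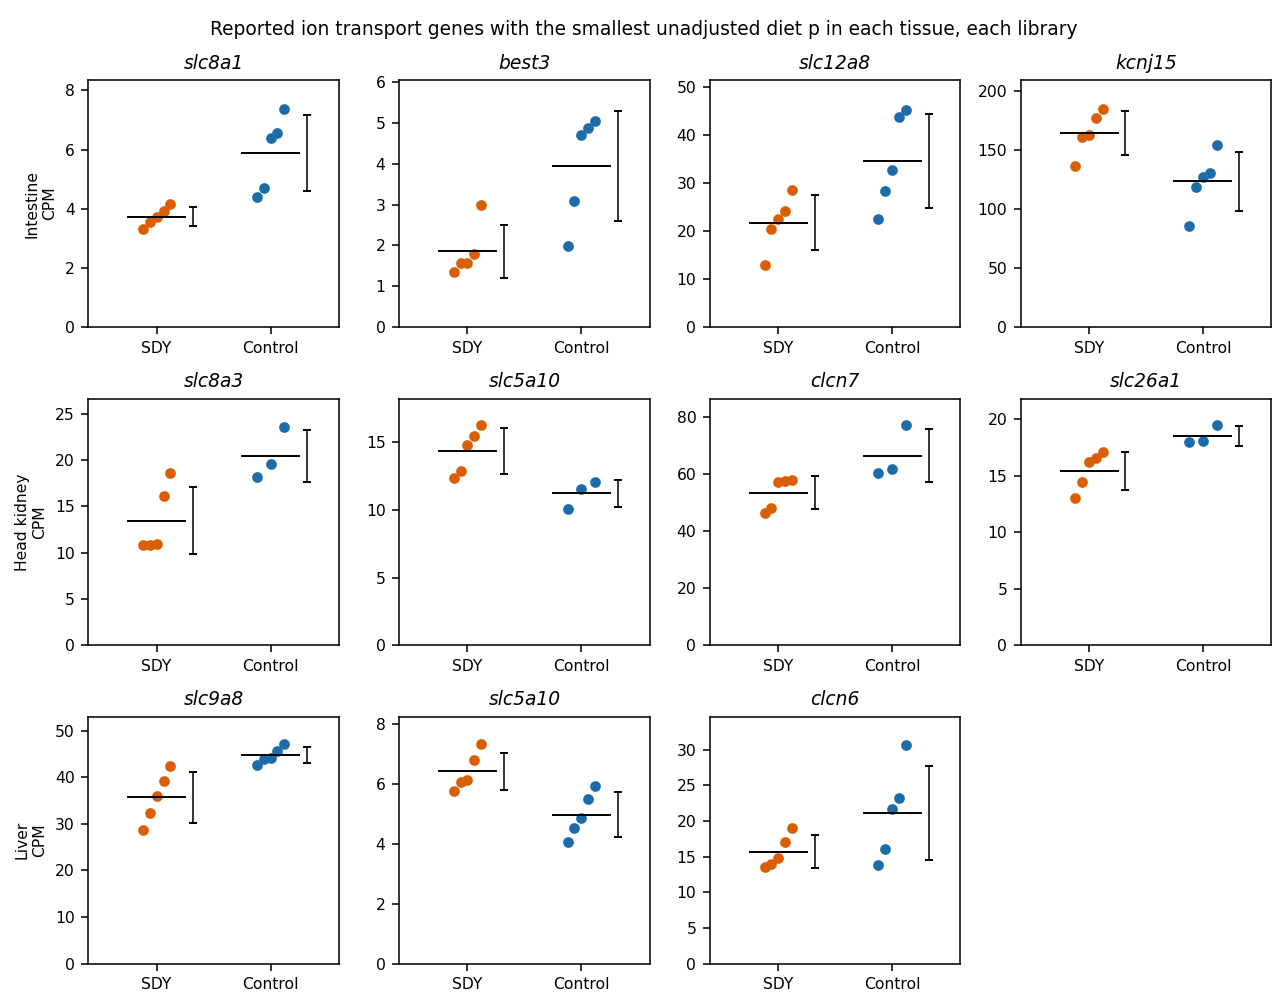
CPM, scaled within the tissue, of reported members among the 4 with the smallest unadjusted diet p in intestine (top row), head kidney (middle row) and liver (bottom row, 3 members). Points are libraries with SDY left of Control, horizontal lines are means and bars are 1 SD. The groups do not overlap for slc8a1 in intestine, for slc5a10, clcn7 and slc26a1 in head kidney, and for slc9a8 in liver, and all adjusted p-values lie at 0.406 or above.

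Whether the diet difference itself differed between tissues was tested as an interaction in the fit of 28 libraries. No member passed: 0 of 35 for intestine minus liver (0.00985% of all genes), 0 of 35 for intestine minus head kidney (0.00493%) and 0 of 35 for head kidney minus liver (0.00985%). At an unadjusted p under 0.05 there were 4, 2 and 1 members for these comparisons in the same order, against 5.81%, 7.04% and 6.19% of all genes. The smallest p belonged to best3 for intestine minus liver (-2.93, SE 1.005, adjusted p = 0.857) and to kcnj5 for intestine minus head kidney (2.05, SE 0.77, adjusted p = 0.494). The first of these rests on a gene with 5 counts in liver, and was -5.07 without Liver Control replicate 3 (adjusted p = 0.904). DESeq2 called 0 members in each of these tests.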

How the data were processed

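Poly(A) RNA of intestine, head kidney and liver was sequenced from a directional NEBNext library kit, per the labels' protocols. The deposited values are raw read counts per gene, 1 file per library, made by the authors with featureCounts 1.5.3 on fSpaAur1.1 annotation, per the file headers. Reads were assigned to whole mRNA spans of a gene, so introns count, reads could go to overlapping genes, and no strand option was set. Trim Galore 0.4.4, FastQC, HISAT2 2.1.0 and DESeq2 are named in the submitters' processing notes. Totals of the 28 libraries used ran from 9276705 to 20580440. Their TMM-scaled sizes ran from 4873535 to 30612496, so 3 counts in a library were worth 0.098 to 0.616 CPM on that scale.

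All genes were fitted with edgeR 4.0.16 in R 4.3.3 (filterByExpr, TMM, robust quasi-likelihood test, Benjamini-Hochberg adjustment over all genes tested). SE is the absolute log2 fold change over the square root of F. Diet was fitted within each tissue, and tissue differences and interactions in 1 fit of the 6 groups. CPM for diet values were scaled within a tissue and are on another scale than the CPM across tissues. Marker sums are on library totals. The fits were tested on simulated data with a common spread for all genes and no group differences beyond those set for chosen genes. Such data hold no composition shift between tissues and no library standing apart, so they do not test how the fits handle these. Alternatives were size factors (RLE), library totals, no filter, DESeq2 1.42.0, a replicate block, a replicate block within each diet (added after the data were seen), all head kidney libraries, each diet alone and leaving out each library.

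The 45 members and all gene and marker lists were chosen with earlier results of these data known. The genes given with values were the 6 with the highest median CPM per tissue (a choice made without gene lengths), the 4 largest non-overlapping differences per direction and tissue pair, the 4 smallest diet p per tissue, the 2 smallest interaction p per tissue pair, the ATPase subunits, cftr and the aquaporins, which gave 30. The other genes given with values were chosen after their values were seen. Nothing was read from gene sequences. Some members are counted but not reported here by name.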

Additional observations from a re-analysis of the deposited data

Results flagged for a closer look

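Among 173 gene and diet groups of 5 libraries, 12 had 1 library standing apart by Dixon's test at its 95% critical value of 0.710. For normally distributed values chance gives about 1 in 20 groups, a rate that does not hold for genes near 0 counts. For kcnj15 in Head_Kidney SDY and slc5a5 in Intestine Control the other libraries were at 0, which fixes the statistic at 1. Values are CPM on the TMM scale of the 28 libraries.

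Intestine Control replicate 4 accounted for 4 of them. Its slc5a1 was at 479 CPM, where the other Control intestines had 1029 to 1250.3 CPM. Its slc26a5 stood at 30.3 CPM, against 4.63 to 6.32 CPM in the others, its slc26a1 at 6.40 CPM, against 3.14 to 4.01 CPM, and its slc5a5 at 0.261 CPM, against 0 in the others. This library was the lowest of the 10 intestine libraries for 6 of the 12 members called highest in intestine. It was also the lowest for 9 of the 26 members with a median of at least 1 CPM there. The share of all genes lowest in it is not given, so these counts do not set the members apart. Its enterocyte transcripts summed to 3099 CPM, and their part in its values was not tested.

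Head_Kidney SDY replicate 4 had kcnj15 at 0.164 CPM, against 0 in the other SDY libraries, atp1b4 at 0.426 CPM, against 0.0682 to 0.149 CPM, and kcnj11 at 0.131 CPM, against 0 to 0.0371 CPM. Head_Kidney SDY replicate 2 had aqp4 at 3.41 CPM, against 0.218 to 0.917 CPM, and slc9a8 at 23.3 CPM, against 29.7 to 31.4 CPM. Intestine SDY replicate 2 had best3 at 2.36 CPM, against 1.07 to 1.38 CPM. Intestine Control replicate 2 had kcnj6 at 1.24 CPM, against 0.131 to 0.437 CPM. Liver SDY replicate 1 had slc8a1 at 0, against 0.306 to 0.410 CPM.

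The left-out library Head_Kidney Control replicate 3 held 7 members at least 10 times above the highest of the 8 head kidney libraries used, in CPM on library totals. These were kcnj13 at 24.2 CPM (highest of the others 0.0546), slc12a8 at 32.99 CPM (0.492), slc5a1 at 20.4 CPM (0.0667), slc5a9 at 18.0 CPM (1.61), slc5a11 at 11.1 CPM (0.501), kcnj15 at 7.84 CPM (0.273) and slc26a9 at 0.851 CPM (0.0626). The share of all genes raised as far in this library is not given, so the number does not set the members apart. Its renal tubule transcripts summed to 681 CPM and its hepatocyte transcripts to 18752 CPM, and their part in the values of these members was not tested. The left-out replicate 1 had 1 count on 1 member.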

How the results depend on the processing

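Of the counts of members past a threshold in either direction, 285 stayed within 1.5 times under the alternatives run and 2 did not. These 2 came with all head kidney libraries, where 1 member passed the interaction of intestine minus head kidney (slc5a1, 8.18). There, 2 members passed that of head kidney minus liver (slc12a8, -6.36, and slc5a1, -8.84). The tally includes the diet and interaction counts, which were 0 in the main fits and in every fit without 1 library. Such a count of 0 that stayed at 0 adds to the 285. The tally does not cover counts split by direction or tissue pattern, some of which moved further under library totals. Members below both other tissues went from 7 to 3 in intestine, 12 to 6 in head kidney and 8 to 18 in liver. Members above both went from 12 to 15, 8 to 11 and 6 to 4 in that order. Of the single-gene values 2671 kept direction and call, 48 lost the call and 12 turned round. Under library totals, intestine minus liver became 0.60 for slc12a9, 0.35 for slc26a1 and 0.82 for slc9a8, and intestine minus head kidney became -0.050 for clcn7. Head kidney minus liver became 0.29 for atp1b3, 0.85 for clcn2, 0.71 for clcn6, 0.16 for slc26a11, 1.13 for slc5a10 and 0.28 for slc9a8. With all head kidney libraries, head kidney minus liver was 0.51 for kcnj15, and the head kidney diet value of slc5a10 was -0.15. The cause was not tested. Leaving out 1 library gave 28 to 30 calls for intestine minus liver, 30 to 33 for intestine minus head kidney and 26 to 29 for head kidney minus liver, and 0 for diet and interactions. It ended the calls of kcnj10 (intestine minus liver) without any of 6 libraries, with 1.20 to 1.26. The labels do not say whether a number marks 1 fish across tissues. Same-numbered SDY and Control libraries correlated, in deviations from their group means, at -0.13 to 0.54 in intestine, -0.01 to 0.15 in head kidney and -0.13 to 0.13 in liver. Same-numbered libraries of 1 diet correlated at -0.10 to 0.14 between intestine and liver, -0.13 to 0.077 between intestine and head kidney and -0.084 to 0.21 between head kidney and liver, so pairing was not established. With a replicate block the calls were 28, 30 and 29 for the 3 tissue pairs in that order, without kcnj10 for intestine minus liver (1.31, adjusted p = 0.0501) and clcn7 for intestine minus head kidney (0.23, adjusted p = 0.0685). With a replicate block within each diet, chosen after seeing the data, they were 29, 30 and 27, without clcn7 (0.19, adjusted p = 0.166) and, for head kidney minus liver, clcn2 (-0.60, adjusted p = 0.0659). Both blocks gave 0 for interactions, and the first gave 0 for diet. Genes with under 20 counts in a tissue, and diet differences near the size of their SE, are limited by depth and number of libraries.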
